A study of Mus musculus with 16 samples.

Results

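The CSF1 receptor system and the transcription factors that maintain the myeloid lineage were followed through microglia of the olfactory bulb. They were represented by 9 genes, read by symbol from a table of 57010 genes: the receptor Csf1r, its ligands Csf1 and Il34, and the transcription factors Irf8, Maf, Cebpa, Cebpb, Runx1 and Bhlhe41. All 9 were found and all 9 passed the filter on low counts, as did 18227 genes in total.

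The study asked how microglia of the olfactory bulb differ in young mice of an amyloid model. CD11b-positive cells were isolated with magnetic beads after papain digestion from the olfactory bulbs of mice aged 2 months. WT animals were of the C57BL/6J strain and carried the unmodified mouse App gene. APP-NL-G-F animals, called knock-in below, carried a humanised App gene at its own locus with the Swedish, Arctic and Iberian changes, so that the change is present in every cell type and is under the App gene's own control. Libraries were made from 4 samples for each of the 4 groups (WT females, knock-in females, WT males and knock-in males), which gave 8 WT and 8 knock-in libraries. The labels number the replicates 1 to 4 within each group. A reporting form of the study mentions technical replicates for RNA sequencing, and nothing in the labels says that the replicates were separate animals. The p-values therefore measure the spread between these 16 libraries.

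CSF1R is a receptor tyrosine kinase on the surface of microglia and other macrophages. Microglia depend on it for survival, and blocking it depletes them from the brain. Both of its ligands, colony stimulating factor 1 (CSF1) and interleukin-34 (IL-34), bind the same receptor; in the brain IL-34 is made mainly by neurons, whereas CSF1 is made largely by glial cells, microglia among them. Downstream, the lineage is set up and held by transcription factors: RUNX1 acts early in blood and yolk sac progenitors, C/EBP alpha and C/EBP beta are basic leucine zipper factors that drive myeloid genes, IRF8 is required for microglia to form normally, MAF restrains proliferation of mature macrophages, and BHLHE41 is a repressor enriched in brain and lung macrophages.

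Depth ranged from 9052932 to 18117286 counts per library, so that 3 counts corresponded to between 0.166 and 0.331 CPM, the count scaled to the library's total. All other CPM values given here were scaled to the total after its adjustment by TMM normalisation. Xist was at 547.4 CPM or more in the libraries labelled female and at 0.448 CPM or less in those labelled male, so no library went against its sex label. App itself was at 419.2 ± 34.4 CPM (SD, n = 8) in WT and 399.1 ± 12.7 CPM (n = 8) in knock-in libraries, and these gene counts hold no base calls, so the knock-in changes could not be checked in them. The paper states that its authors checked the group assignments by looking for these changes in the reads aligned to App. All 17 microglial markers examined, among them P2ry12, Tmem119 and Cx3cr1, passed the filter, with sums between 19368 and 22937 CPM in WT and between 19356 and 22447 CPM in knock-in libraries, and none of them was called. A gene is called here at a Benjamini-Hochberg FDR below 0.1 in edgeR's quasi-likelihood test together with an absolute log2 fold change above 0.5.

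The receptor was by far the most abundant of the 9 transcripts. Per kilobase of exon, Csf1r stood at 769.6 ± 42.1 CPM (SD, n = 16), rank 26 of the 17812 tested genes with an exon length. Cebpa followed at 69.8 ± 14.6 CPM per kb, then Cebpb at 67.3 ± 16.1 and Maf at 66.4 ± 3.39. Irf8 stood at 34.6 ± 2.67, Bhlhe41 at 20.3 ± 1.45, Runx1 at 14.5 ± 1.74 and Csf1 at 10.8 ± 3.90 CPM per kb. Il34 came last at 0.374 ± 0.0918 CPM per kb, rank 14819. The level of Csf1r per length was thus 71-fold that of its ligand Csf1 and 2059-fold that of Il34 in the same libraries.

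The order of these levels was not fixed at every step. Cebpa lay above Cebpb in 9 of 16 libraries and Cebpb above Maf in 9 of 16, so these 3 genes did not differ beyond their spread, and the ranges of Runx1 and Csf1 overlapped as well, with Runx1 higher in 14 of 16 libraries. The other neighbours in the order did not overlap in any library. The order also depends on which exons are counted: per kilobase of the longest annotated transcript, Maf (96.8 CPM per kb) passed Cebpa (70.1) and Cebpb (67.3), and Runx1 (26.5) passed Bhlhe41 (23.7).

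**Figure D1:**
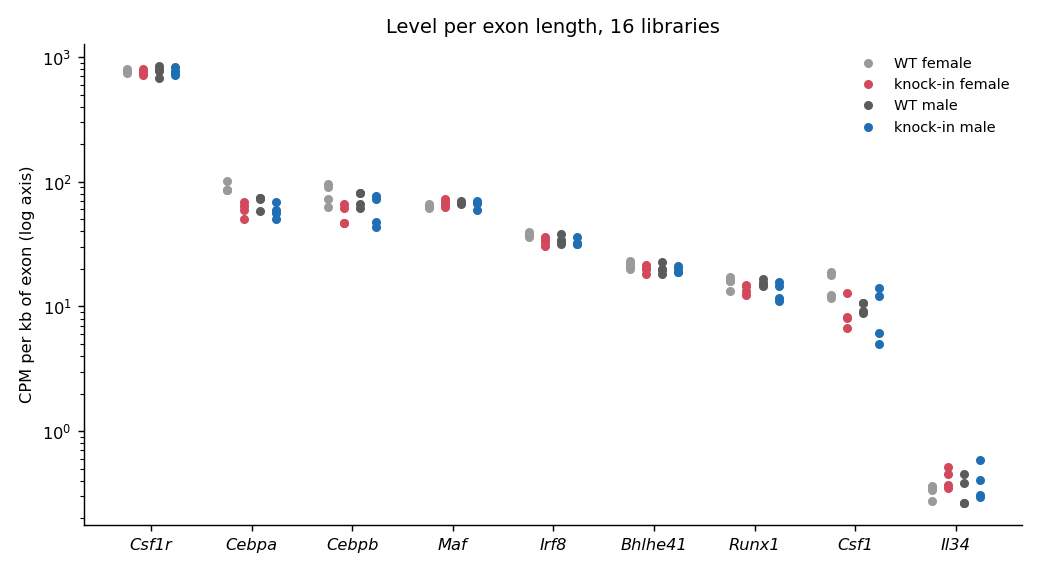
Level of the 9 genes in each of the 16 libraries, in TMM-normalised CPM per kb of exon (vertical axis, logarithmic), with genes ordered by mean level and 1 point per library coloured by group. Csf1r stands near 769.6 CPM per kb in every group, the lineage factors lie in the range between about 11 and 102.1, and Il34 reaches no higher than 0.586.

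For the receptor no genotype difference was detected. Csf1r read 5697, 5661, 5863 and 5485 CPM in WT females (replicates 1 to 4) and 5886, 5526, 5261 and 5720 CPM in knock-in females. In males it read 5700, 6263, 5045 and 5880 CPM in WT and 5687, 5501, 6124 and 5335 CPM in knock-in libraries. The groups overlapped throughout, with a coefficient of variation of 5.48% over all 16 libraries. The log2 fold change of knock-in against WT was -0.02 (SE 0.0481, 95% confidence interval -0.118 to 0.0833, edgeR FDR 0.877), and the exact permutation test within sex gave p = 0.697.

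The ligands behaved less evenly. Csf1 is the gene with the widest spread of the 9 (coefficient of variation 36%, 357 to 1469 counts). It read 72.2, 68.9, 104.9 and 111.8 CPM in WT females against 47.8, 48.7, 39.4 and 74.6 CPM in knock-in females. In males the values were 51.7, 54.0, 62.2 and 63.2 CPM in WT and 36.2, 29.5, 71.2 and 82.9 CPM in knock-in libraries. Of the knock-in libraries 5 lay below the lowest WT library, and the remaining 3 (female replicate 4 and male replicates 3 and 4) lay above the WT median of 66.0 CPM. Over both sexes the log2 fold change was -0.42 (SE 0.202, interval -0.843 to 0.0024, FDR 0.21), which did not pass, and the exact permutation test gave p = 0.0588.

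Il34 was barely detected, with 9 to 27 counts per library. It read 1.38, 1.04, 1.36 and 1.28 CPM in WT females and 1.34, 1.42, 1.98 and 1.72 CPM in knock-in females, and in males 1.46, 1.01, 1.01 and 1.73 CPM in WT against 1.53, 2.23, 1.18 and 1.12 CPM in knock-in libraries. The log2 fold change was 0.28 (SE 0.186, interval -0.111 to 0.669, FDR 0.396; exact permutation p = 0.117). No change of Il34 was detected. Beside it, the summed level of 15 neuronal markers was between 413.8 and 571.6 CPM in WT and between 512.1 and 751.2 CPM in knock-in libraries, and the part of RNA from other cells in the Il34 counts was not tested.

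**Figure D2:**
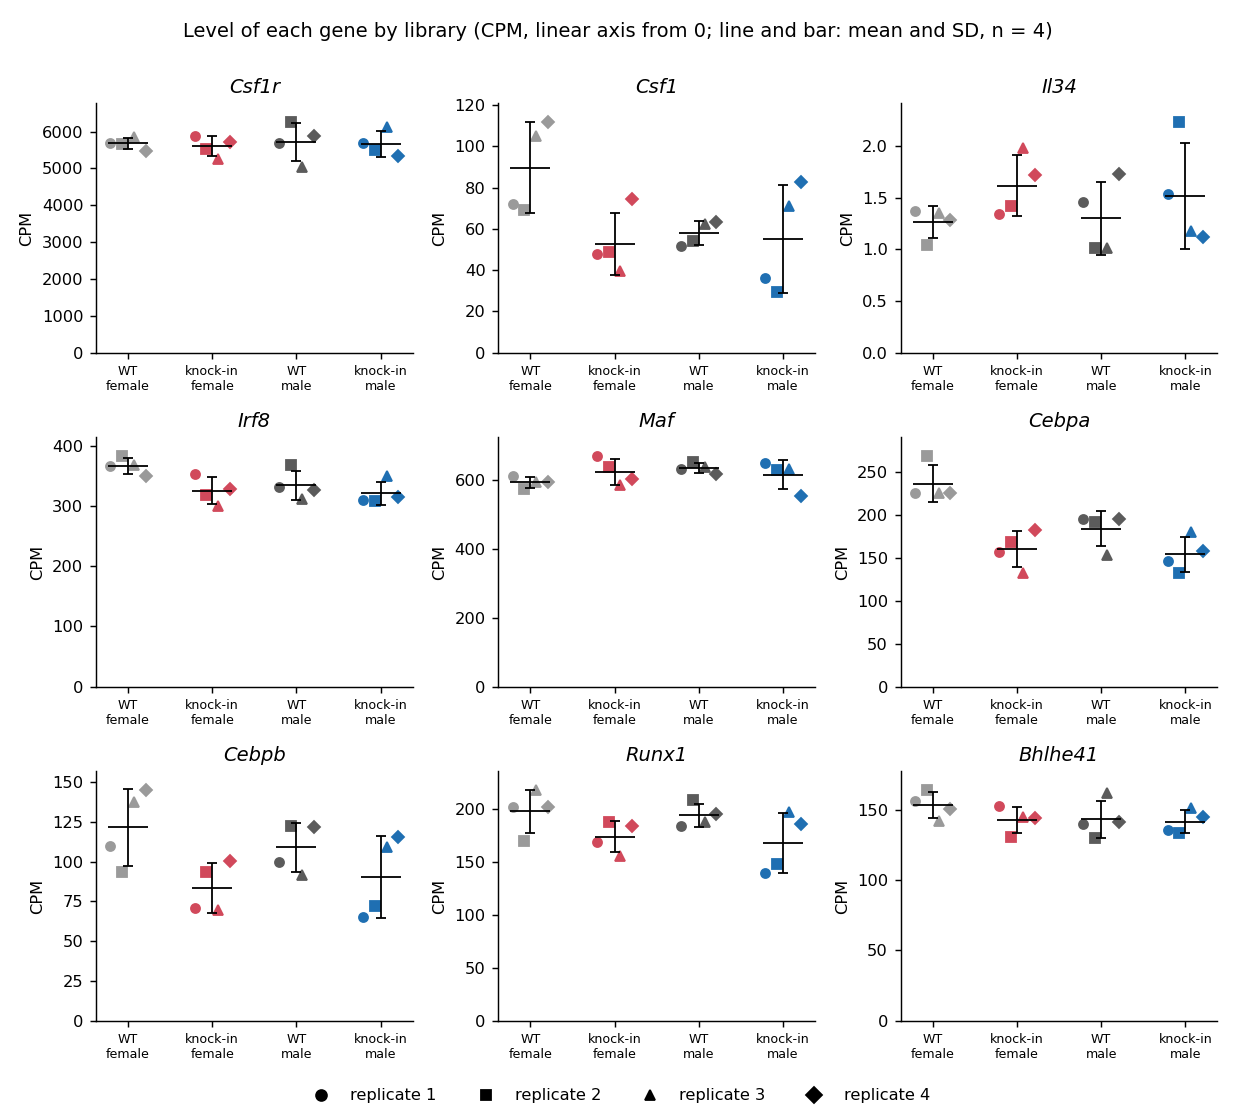
CPM of each of the 9 genes (vertical axes, linear from 0) in the 4 groups, with 1 point per library, a symbol for each replicate number, and the mean with its SD (n = 4) in black. Cebpa separates the WT females (225.4 to 269.3 CPM) from the knock-in females (132.5 to 182.7 CPM), and in knock-in males replicates 3 and 4 lie above replicates 1 and 2 for Csf1, Cebpa, Cebpb and Runx1.

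The transcription factors differed in how far they moved with genotype. Of the 9 genes, 3 had an FDR below 0.1 over both sexes, namely Cebpa, Cebpb and Runx1, and all 3 were lower in knock-in libraries. Among all tested genes 7.82% had an FDR below 0.1 and a lower level in knock-in libraries. None of the 9 also passed the fold change threshold, by edgeR, DESeq2 or limma voom, against 8.64% of all tested genes (4.3% lower and 4.33% higher). At an unadjusted p below 0.05 there were 4 of the 9, all lower, the fourth being Irf8, against 11.8% of all tested genes that passed this p and lay lower, and 7 of the 9 had a log2 fold change below 0, while the median over all tested genes was -0.0014. In bulk libraries fewer cells of a type and less RNA per cell cannot be told apart.

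Cebpa, a lineage factor of granulocytes and macrophages, gave the firmest difference. It read 226.4, 269.3, 225.9 and 225.4 CPM in WT females and 157.5, 169.2, 132.5 and 182.7 CPM in knock-in females. In males the readings were 195.9, 192.6, 153.2 and 196.0 CPM in WT and 147.1, 132.5, 180.4 and 157.7 CPM in knock-in libraries. The female groups did not overlap, whereas the male groups did, since WT male replicate 3 lay below knock-in male replicates 3 and 4. The mean was 210.6 ± 34.2 CPM (SD, n = 8) in WT and 157.5 ± 19.5 CPM (n = 8) in knock-in libraries, a log2 fold change of -0.41 (SE 0.0824, interval -0.582 to -0.236, FDR 0.00447) or -24.7%. All 8 knock-in libraries lay below the WT median, and the exact permutation test gave p = 0.00122, where the smallest p it can give is 0.000408. The FDR stayed below 0.1 when any 1 of the 16 libraries was left out.

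Cebpb, a related factor that is induced by inflammatory and stress signals, was lower by a like amount with a wider spread. It read 109.9, 93.5, 137.8 and 145.3 CPM in WT females and 70.6, 93.4, 69.6 and 100.6 CPM in knock-in females, and in males 100.1, 122.6, 91.9 and 122.0 CPM in WT against 65.0, 72.1, 109.4 and 115.3 CPM in knock-in libraries. The ranges overlapped in both sexes, although all 8 knock-in libraries lay below the WT median of 115.9 CPM. The log2 fold change was -0.41 (SE 0.130, interval -0.68 to -0.135, FDR 0.0563), or -24.6%, and the exact permutation test gave p = 0.02. With 1 library left out, the FDR of Cebpb was below 0.1 in 9 of 16 fits and ranged from 0.0213 to 0.132. It was highest without knock-in male replicate 2, and it also passed 0.1 without WT female replicate 3 (0.124) or 4 (0.102), knock-in female replicate 1 (0.117) or 3 (0.121), WT male replicate 2 (0.116) or knock-in male replicate 1 (0.128).

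Runx1 showed the smallest of the differences that passed the FDR. It read 202.4, 169.5, 218.3 and 201.7 CPM in WT females and 169.1, 188.0, 155.7 and 183.6 CPM in knock-in females, and in males 183.9, 208.8, 188.2 and 195.7 CPM in WT against 139.3, 148.0, 197.2 and 186.1 CPM in knock-in libraries. All 8 knock-in libraries lay below the WT median of 198.7 CPM, and both sexes overlapped. The log2 fold change was -0.20 (SE 0.0706, interval -0.347 to -0.0511, FDR 0.0843), or -12.9% (exact permutation p = 0.0229). Its FDR was below 0.1 in 5 of the 16 fits with 1 library left out, and the highest, 0.196, came without knock-in male replicate 2.

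For Cebpa, Cebpb and Runx1, the 3 genes with an FDR below 0.1 over both sexes, the 250 bases before the annotated start of each are shown. They were read from the GRCm39 genome at the canonical transcript start. Runx1 has further annotated starts, and the one shown is the distal start. Capitals mark matches, on either strand, to 9 short motifs searched as plain letters: the cAMP response element TGACGTCA, the AP-1 site TGANTCA, the C/EBP site TTGCNNAA, the TATA box TATAAA, the CCAAT box CCAAT, the GC box GGGCGG, the Runx site TGTGGT, the PU.1 site GAGGAAGT and the STAT site TTCNNNGAA. The Cebpa promoter lies at chr7:34818478-34818727 on the plus strand, the Cebpb promoter at chr2:167530585-167530834 on the plus strand and the Runx1 promoter at chr16:92623038-92623287 on the minus strand. Cebpa and Cebpb are genes of 1 exon, and the Runx1 transcript has 8.
Cebpa promoter: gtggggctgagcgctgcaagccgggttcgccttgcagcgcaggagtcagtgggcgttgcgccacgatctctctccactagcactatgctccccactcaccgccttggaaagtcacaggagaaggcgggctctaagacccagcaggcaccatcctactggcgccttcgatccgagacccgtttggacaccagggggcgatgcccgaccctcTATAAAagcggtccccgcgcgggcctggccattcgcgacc
Cebpb promoter: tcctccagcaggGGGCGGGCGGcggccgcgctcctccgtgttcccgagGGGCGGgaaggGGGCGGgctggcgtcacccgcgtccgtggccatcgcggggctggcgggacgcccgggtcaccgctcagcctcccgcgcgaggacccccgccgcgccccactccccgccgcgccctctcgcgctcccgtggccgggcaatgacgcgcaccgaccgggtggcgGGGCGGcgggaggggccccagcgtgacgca
Runx1 promoter: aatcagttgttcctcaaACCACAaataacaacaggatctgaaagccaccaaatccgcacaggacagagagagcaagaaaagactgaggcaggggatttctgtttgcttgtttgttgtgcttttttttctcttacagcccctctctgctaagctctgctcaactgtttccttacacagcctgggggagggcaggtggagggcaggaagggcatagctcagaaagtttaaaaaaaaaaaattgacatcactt

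The 3 windows had little in common. The Cebpa window holds a TATA box that begins 40 bases before the start, a motif found in 11.9% of the 21580 promoters of protein-coding genes read in the same way. The Cebpb window is 81.6% G and C, more than 99.7% of all promoters (median 53.2%), and holds 5 GC boxes, the first 2 of which overlap; 36.4% of promoters hold at least 1. The Runx1 window is 44.8% G and C. It holds a Runx site on the strand opposite to the printed one, where it reads ACCACA, and 13% of promoters hold such a site on either strand. No cAMP response element, AP-1, C/EBP, CCAAT, PU.1 or STAT match was found in the 3 windows, where the shares among all promoters were 1.7%, 6.14%, 9.36%, 36.4%, 2.08% and 7.71%. A match is a run of letters and not a site shown to be bound.

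The other 3 factors differed less. Irf8 read 365.3, 383.0, 367.9 and 350.2 CPM in WT females and 352.9, 318.8, 299.0 and 328.6 CPM in knock-in females, and in males 330.6, 367.7, 310.9 and 327.0 CPM in WT against 309.6, 308.8, 349.7 and 314.4 CPM in knock-in libraries. All 8 knock-in libraries lay below the WT median of 357.7 CPM, but the ranges overlapped in both sexes. Its log2 fold change of -0.12 (SE 0.0467, interval -0.215 to -0.0192) had an FDR of 0.125 and did not pass, with an exact permutation p of 0.0253. Maf ranged from 572.4 to 650.9 CPM in WT (median 614.0) and from 552.2 to 669.2 CPM in knock-in libraries (median 629.8), a log2 fold change of 0.01 (interval -0.0752 to 0.104, FDR 0.891). Bhlhe41 ranged from 130.3 to 164.5 CPM in WT (median 146.7) and from 130.8 to 153.0 CPM in knock-in libraries (median 144.5), a log2 fold change of -0.06 (interval -0.163 to 0.0456, FDR 0.52). The intervals of Maf and Bhlhe41 include 0 and leave out the fold change threshold of 0.5 in both directions.

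**Figure D3:**
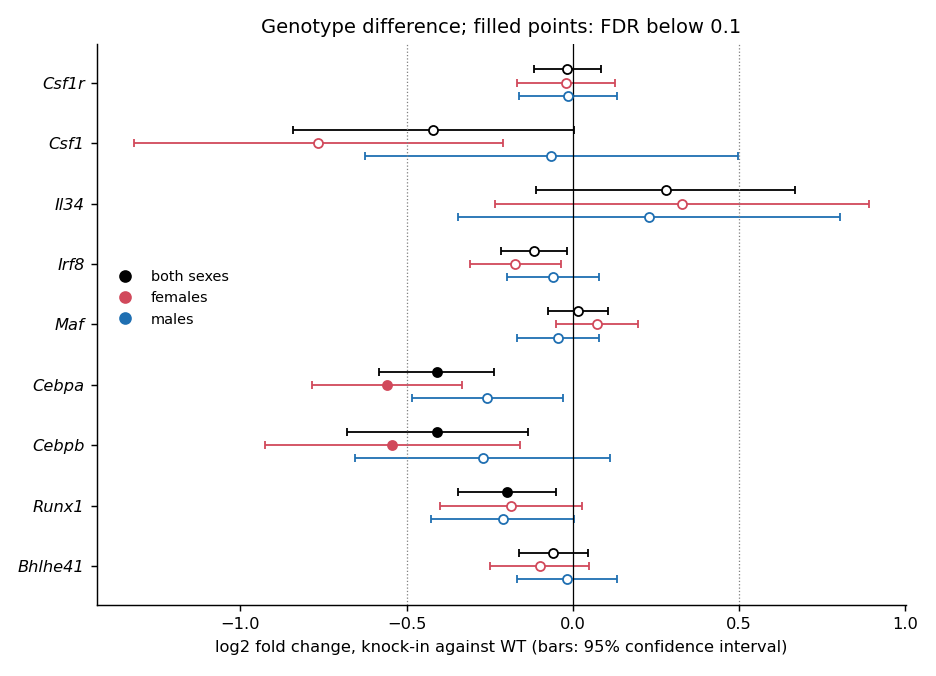
Log2 fold change of knock-in against WT (horizontal axis) for the 9 genes over both sexes, in females and in males, with 95% confidence intervals and the threshold of 0.5 as dotted lines. Filled points have an FDR below 0.1, which holds for Cebpa, Cebpb and Runx1 over both sexes and for Cebpa and Cebpb in females.

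Within females, where the libraries of each genotype numbered 4, Cebpa and Cebpb were called lower, which is 2 of 9 genes against 4.33% of all tested genes. Cebpa fell by 0.56 on the log2 scale (SE 0.108, FDR 0.00451) and was the only 1 of the 9 whose knock-in female libraries all lay below all WT female libraries, as was the case for 7.41% of tested genes. Cebpb fell by 0.54 (SE 0.182, FDR 0.0918). Csf1 had the largest fold change, -0.77 (SE 0.264, interval -1.32 to -0.21), and an FDR of 0.101. Irf8 stood at -0.17 (FDR 0.13) and Runx1 at -0.19 (FDR 0.32). In exact permutation tests within females, where 70 splits allow no p below 0.0286, Cebpa reached p = 0.0286, Cebpb p = 0.0571 and Csf1 p = 0.0857.

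The female calls depended on the fit and on which libraries were present. When the 8 female libraries were fitted alone, with no block, Csf1 was called (log2 fold change -0.78, FDR 0.0333) beside Cebpa (-0.57, FDR 0.00379) and Cebpb (-0.55, FDR 0.0425), 3 of 9 genes against 4.83% of all genes tested there. Same-numbered female libraries correlated positively in their deviations, but some differently numbered ones correlated more, so the numbers did not pair them. In the fit of the 4 groups with the replicate number as a block, Csf1 was called too (log2 fold change -0.75, FDR 0.0306). Beside it were Cebpa (-0.56, FDR 0.00834) and Cebpb (-0.54, FDR 0.0519), which is 3 of 9 genes against 4.26% of all tested genes called lower in that fit. With 1 of the 8 female libraries left out, Cebpa was called in 6 of 8 fits, Cebpb in 2 of 8 and Csf1 in 1 of 8. Over all 16 fits, those without a male library included, the FDR of Cebpa stayed between 0.00409 and 0.0271. Cebpa missed the fold threshold without WT female replicate 2 (-0.48) and without knock-in female replicate 3 (-0.48). The FDR of Cebpb ran from 0.0844 to 0.255, the highest without knock-in female replicate 3. In these females the 8 endothelial markers summed to between 92.9 and 200.1 CPM in WT and between 84.1 and 104.4 CPM in knock-in libraries, with 6 of the 8 called lower, and the 8 astrocyte markers to between 619.4 and 1185 CPM and between 490.9 and 782.1 CPM, with 3 of the 8 called lower. The 15 neuronal markers summed to between 461.5 and 506.1 CPM in WT and between 597.9 and 709.4 CPM in knock-in females, with 2 called higher. For the 8 pericyte and fibroblast markers it was 68.1 to 124.4 CPM and 51.4 to 66.0 CPM, with 2 called lower. Of 6 dendritic cell markers 1 was called lower. Among all tested genes 4.33% were called lower in females in the same fit of the 4 groups. The share called higher in females was not worked out. In males the endothelial sums went the other way, from 66.15 to 78.68 CPM in WT and from 80.76 to 110.8 CPM in knock-in libraries. The part of all these cells in the female differences was not tested.

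In males none of the 9 genes was called by edgeR, against 0.252% of all tested genes, and 1 had an unadjusted p below 0.05, against 11.7%. That gene was Cebpa, with a log2 fold change of -0.26 (SE 0.108, interval -0.484 to -0.03, FDR 0.366). Cebpb stood at -0.27 (SE 0.182, FDR 0.591), Runx1 at -0.21 (SE 0.102, FDR 0.44) and Csf1 at -0.07 (SE 0.267, interval -0.626 to 0.495, FDR 0.946). The difference between the sexes in the genotype effect was tested itself, and 0 of the 9 genes were called by edgeR or had an unadjusted p below 0.05, against 0.0274% of all genes called and 5.94% at that p. The estimates furthest from 0 were those of Csf1 (-0.70, interval -1.49 to 0.0883, FDR 0.897) and Cebpa (-0.30, interval -0.623 to 0.018, FDR 0.883), as females minus males. For none of the 9 is the genotype effect therefore shown to differ between the sexes.

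Sex was the other factor of the design. Over both genotypes 0 of the 9 genes were called in edgeR between females and males, against 0.0604% of all tested genes, and 1 had an unadjusted p below 0.05, against 6.56%, again Cebpa (log2 0.21 higher in females, SE 0.0823, FDR 0.714). Among WT libraries alone, a comparison added after the data had been seen, Cebpa was at 236.7 ± 21.7 CPM in females and 184.4 ± 20.9 CPM in males (SD, n = 4 each), a log2 difference of 0.36 (SE 0.108) with an edgeR FDR of 0.176. Csf1 was at 89.5 ± 22.04 CPM in WT females and 57.8 ± 5.76 CPM in WT males, a log2 difference of 0.64 (SE 0.264, FDR 0.378). Neither was called, against 0.938% of all genes in that comparison. Between knock-in females and knock-in males 0 of the 9 were called, and 0.0549% of all genes were, with Csf1 at 52.6 ± 15.3 and 55.0 ± 26.1 CPM (SD, n = 4 each).

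The knock-in males were not uniform. Replicates 3 and 4 lay above replicates 1 and 2 for Csf1 (71.2 and 82.9 against 36.2 and 29.5 CPM), Cebpb (109.4 and 115.3 against 65.0 and 72.1 CPM), Cebpa (180.4 and 157.7 against 147.1 and 132.5 CPM) and Runx1 (197.2 and 186.1 against 139.3 and 148.0 CPM). Over both sexes, Csf1 passed both thresholds when knock-in male replicate 4, its highest knock-in library, was left out (-0.57, FDR 0.055), and in none of the other 15 fits with 1 library left out.

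Replicates 1 and 2 and replicates 3 and 4 of all groups were also fitted apart, a split by label number that was made after the data had been seen. In the 8 libraries of replicates 1 and 2, Csf1 (mean 61.7 CPM in WT and 40.6 CPM in knock-in, log2 fold change -0.62, FDR 0.0002), Cebpa (221.0 and 151.6 CPM, -0.55, FDR 0.00035) and Cebpb (106.5 and 75.3 CPM, -0.52, FDR 0.0102) were called, 3 of 9 against 5.48% of all genes called lower. Runx1 (-0.26, FDR 0.07) and Irf8 (-0.17, FDR 0.0617) were below the FDR threshold. These libraries leave out knock-in male replicates 3 and 4, which had been seen to be high for Csf1, Cebpa, Cebpb and Runx1. That by itself makes the differences of these genes larger, so nothing rests on these calls. In the 8 libraries of replicates 3 and 4 none of the 9 was called, against 0.428% of all genes, with Csf1 at -0.31 (FDR 0.797), Cebpa at -0.28 (FDR 0.579), Cebpb at -0.33 (FDR 0.653) and Runx1 at -0.15 (FDR 0.656), and none had an unadjusted p below 0.05. The difference between the sets was tested by an interaction term, in which 0% of all genes were called by edgeR and the 9 members had unadjusted p-values between 0.119 and 0.571, so the genotype effect is not shown to differ between them. In the order of the samples the libraries of replicates 1 and 2 are numbers 1 to 8 and those of replicates 3 and 4 are numbers 9 to 16. What this order stands for is not said.

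Immediate early genes, which are transcribed soon after a cell is stimulated, moved with the genotype and with these libraries. Of 21 such genes (Fos, Jun, Egr1, Atf3 and others) 19 were called lower in knock-in libraries, with a median log2 fold change of -0.93. Their summed level was 18140, 18717, 14657 and 14619 CPM in WT females and 4488, 5686, 4490 and 8179 CPM in knock-in females. In males it was 8675, 8468, 9182 and 9910 CPM in WT and 3944, 3850, 7870 and 8864 CPM in knock-in libraries. The knock-in libraries with the highest sums, female replicate 4 and male replicates 3 and 4, were the same 3 libraries in which Csf1 lay above the WT median. The part of the immediate early response in the differences of the 9 genes was not tested beyond the fit given next.

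**Figure D4:**
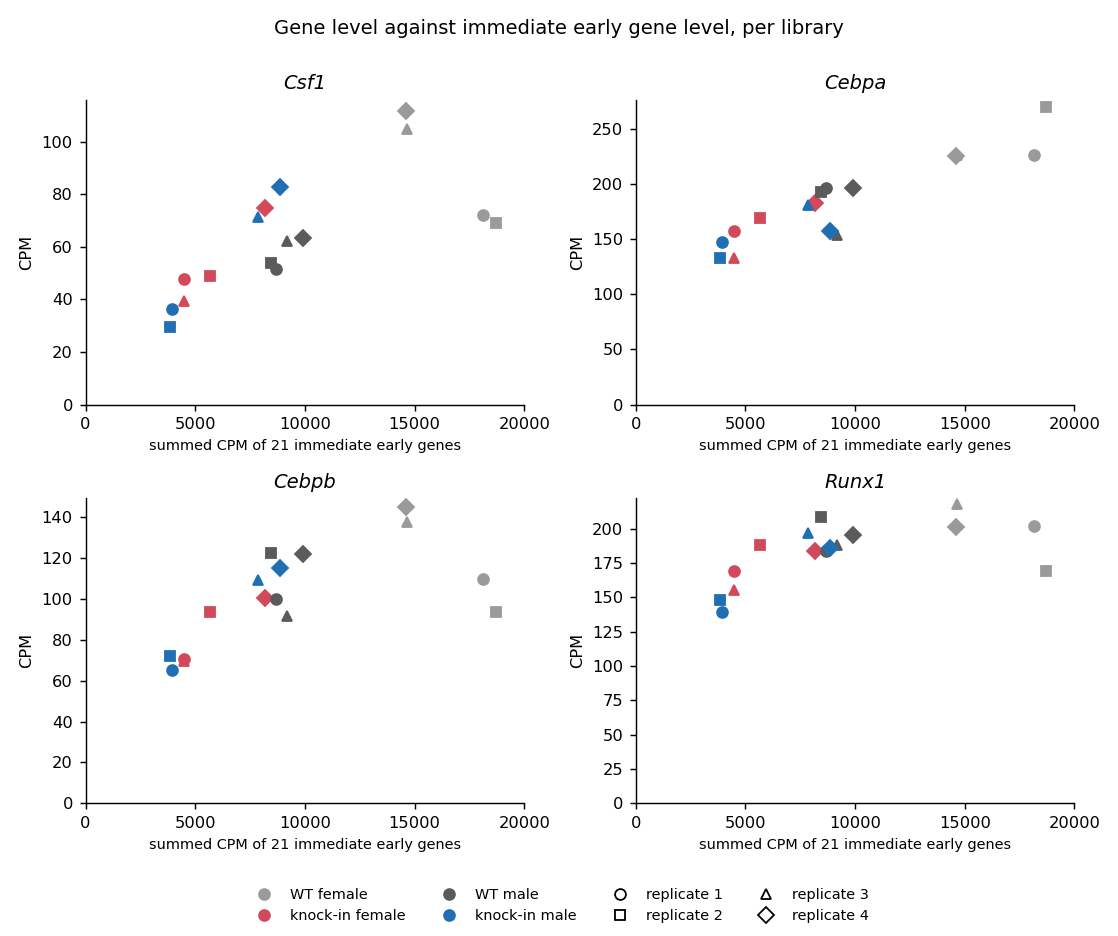
CPM of Csf1, Cebpa, Cebpb and Runx1 (vertical axes, linear from 0) against the summed CPM of 21 immediate early genes (horizontal axes) in the 16 libraries, coloured by group and with a symbol for each replicate number. The 5 knock-in libraries with immediate early sums from 3850 to 5686 CPM lie at the lower left for Csf1, and WT females lie at 14619 to 18717 CPM on the horizontal axis.

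With the mean log2 level of the immediate early genes as a further term, chosen after the data had been seen, none of the 9 genes was below the FDR threshold, against 0.00549% of all genes that were and lay lower. The estimates were then -0.12 for Cebpa (FDR 0.937), 0.07 for Cebpb (FDR 0.97), 0.00045 for Runx1 (FDR 1) and 0.43 for Csf1 (FDR 0.852). The list itself differed between the genotypes, and the fit with it called 7 genes in all, against 1574 without it. With the mean level of the neuronal markers as a term, of which 6 of 15 had an FDR below 0.1 and were higher in knock-in libraries, none of the 9 was below the FDR threshold either (1.77% of all genes were and lay lower). Cebpa then stood at -0.24 (FDR 0.155), Cebpb at -0.26 (FDR 0.527) and Runx1 at -0.12 (FDR 0.613). Markers of monocytes summed to between 45.2 and 102.2 CPM in WT and between 62.9 and 98.9 CPM in knock-in libraries, and those of border macrophages to between 1231 and 1643 CPM and between 1320 and 1724 CPM, and 0 of the 11 genes of either list had an edgeR FDR below 0.1. Of the other marker lists, the oligodendrocyte list had 1 of 8 tested genes called higher, Mog, and 0 genes were called among 5 neutrophil, 1 lymphocyte, 6 dendritic cell, 15 neuronal, 8 astrocyte, 5 oligodendrocyte precursor, 8 endothelial and 8 pericyte and fibroblast genes tested over both sexes.

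Beyond the 9, genes that act in the same pathway were described from 3 lists. The first held 42 genes of CSF1R signalling, all tested, of which 2 were called lower and 0 higher, 6 had an FDR below 0.1 (all lower), and the median log2 fold change was -0.05. Among all tested genes 4.3% were called lower, 4.33% were called higher and 7.82% were lower by FDR alone, so that the called share of the list was near that of all genes. Socs3, a feedback inhibitor of cytokine receptors, was at 357.1 ± 124.8 CPM (SD, n = 8) in WT and 159.1 ± 71.6 CPM (n = 8) in knock-in libraries and fell by 1.09 on the log2 scale (SE 0.239, FDR 0.00762). Mcl1, an anti-apoptotic relative of BCL2, was at 616.4 ± 97.9 and 429.2 ± 89.9 CPM and fell by 0.51 (SE 0.115, FDR 0.0091). Their ranges overlapped, from 231.5 to 547.2 CPM in WT against 81.0 to 274.3 CPM in knock-in libraries for Socs3. The abundant members Inpp5d, which encodes the lipid phosphatase SHIP1 (-0.14, FDR 0.0787), and Lyn, a Src family kinase (-0.02, FDR 0.835), were not called.

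The second list held 23 other colony stimulating factor, cytokine and growth factor genes, of which 21 were tested. By edgeR 0 of these 21 were called, 3 had an FDR below 0.1 and were lower, against 7.82% of all tested genes, and the median log2 fold change was -0.07. The 3 were the receptor genes Il10ra (-0.34, FDR 0.0105), Csf3r (-0.26, FDR 0.036) and Il6ra (-0.17, FDR 0.0618), for which no threshold of fold was reached. They were named after their values were seen. The TGF-beta receptor genes Tgfbr1 and Tgfbr2, whose pathway maintains microglial identity, stood at 0.03 (FDR 0.808) and 0.03 (FDR 0.757).

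The third list held 58 other transcription factors of myeloid cells, of which 55 were tested, 6 were called lower, 2 were called higher and 14 had an FDR below 0.1, with a median log2 fold change of -0.08. The shares over all tested genes were 4.3% called lower, 4.33% called higher and 14.8% with an FDR below 0.1. Id2, an inhibitor of basic helix-loop-helix factors, went from 169.2 ± 43.7 CPM (SD, n = 8) in WT to 72.8 ± 28.8 CPM (n = 8) in knock-in libraries and fell by 1.18 (SE 0.204, FDR 0.00151). Maff fell by 1.06 (FDR 0.0193) and Mafk by 0.55 (FDR 0.00654), both small MAF proteins that lack the activation domain of Maf, which itself was not called. Klf4 (-1.02, FDR 0.0459) and Egr2 (-0.74, FDR 0.0177) are also on the immediate early list. Ddit3, which encodes the stress-induced C/EBP family member CHOP, fell by 0.54 (FDR 0.0024). The 2 that rose were low in level: Runx1t1, a corepressor known as a fusion partner of RUNX1 in leukaemia, went from 9.26 to 13.5 CPM (log2 0.57, FDR 0.0211), and Pparg, a nuclear receptor of lipid metabolism, from 4.13 to 6.07 CPM (log2 0.57, FDR 0.0562). Sall1 (0.06, FDR 0.47) and Zeb2 (0.07, FDR 0.287), which hold microglial identity, were not called.

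**Figure D5:**
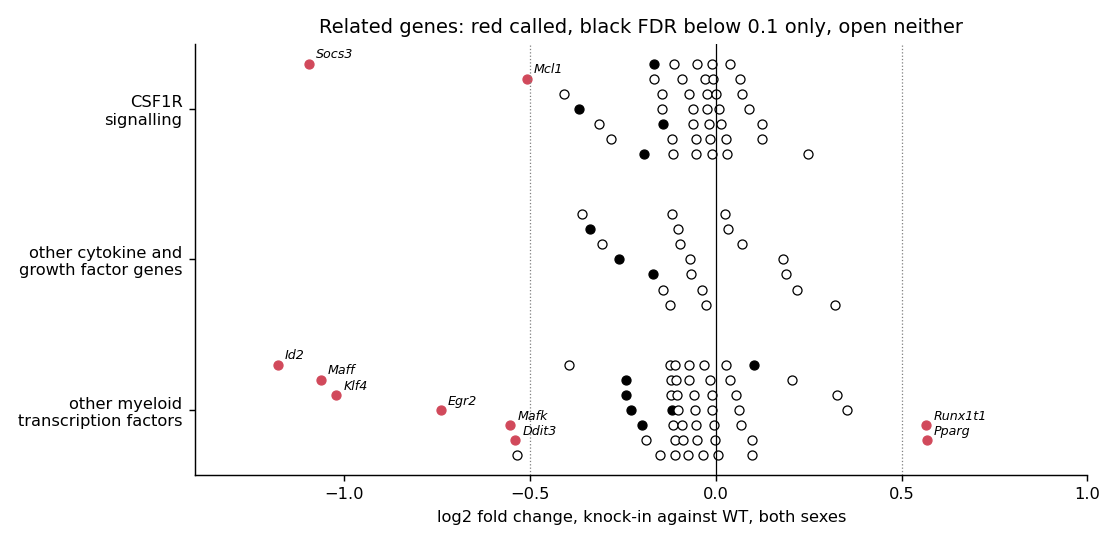
Log2 fold change of knock-in against WT over both sexes (horizontal axis) for each tested gene of the 3 lists of related genes (rows), with the threshold of 0.5 as dotted lines and called genes in red with their names. Most genes lie within 0.5 of 0, and the called genes run from Id2 at -1.18 to Pparg at 0.57.

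Annotated neighbours of the 9 genes were examined in the same build. At Cebpa, the long non-coding RNA Gm45091 overlaps on the opposite strand with its start 302 bp away, and was called lower (8 to 32 counts, 1.87 CPM in WT and 1.05 CPM in knock-in, log2 -0.79, SE 0.246, FDR 0.0502). At Cebpb, the long non-coding RNA A530013C23Rik starts 1713 bp away on the same strand and was called lower as well (14 to 42 counts, 2.32 and 1.55 CPM, log2 -0.56, SE 0.152, FDR 0.0263), whereas Peds1, which overlaps Cebpb on the opposite strand, stood at -0.01 (FDR 0.975). The kit keeps strand, but which strand column was counted is not given in the sources used here, so reads of Cebpa and Gm45091 cannot be fully told apart. Il34 overlaps Vac14 (-0.06, FDR 0.556) and Mtss2 (0.02, FDR 0.911), with at least 354 and 369 counts per library against at most 27 for Il34, and the part of reads from these genes in the Il34 count was not tested. Csf1r overlaps Hmgxb3 (0.0024, FDR 0.988). Maf overlaps Gm15655 (0.33, FDR 0.514) and Bhlhe41 overlaps Gm43909 (0.09, FDR 0.833), and neither was called.

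Across the 16 libraries, the genes whose log2 CPM followed each member most closely are given as a description, since the libraries share genotype, sex and preparation. Csf1r was most like Plxnb2 (Pearson r = 0.908), Eef2 (0.905) and Itgb5 (0.895). Csf1 was most like Ets2 (0.967), Il1a (0.966) and Rasgef1b (0.951), and Rasgef1b (0.948) was also closest to Cebpb, ahead of Ccl4 (0.947) and Rcan1 (0.941). Il1a and Ccl4 encode an inflammatory cytokine and a chemokine, and they stood at -0.84 (FDR 0.046) and -0.77 (FDR 0.0299) in the knock-in comparison. Cebpa was most like Ncoa3 (0.951), Rhob (0.949) and Txnip (0.944), and Runx1 was most like Tent5c (0.943), Tmem251 (0.924) and Rcan1 (0.913). For Irf8 the closest were Eloa (0.96), Itprid2 (0.948) and Tmem104 (0.933), and for Maf they were Impa1 (0.957), Ccdc50 (0.895) and Ap3s1 (0.88). Bhlhe41 followed Tbkbp1 (0.81), Lamb2 (0.807) and Arrdc3 (0.795), and Il34 followed Pcdhga12 (0.827), Plekha1 (0.825) and Ppp3cc (0.819).

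Among the 9 themselves, the closest pairs over the 16 libraries were Cebpb with Runx1 (r = 0.909), Csf1 with Cebpb (0.858) and Irf8 with Cebpa (0.849). The receptor was close to neither ligand, with r = 0.0954 to Csf1 and -0.129 to Il34. Its highest value among the 9 was 0.631, with Irf8. Csf1 and Maf ran in opposite directions (-0.506), and Il34 was negative with 7 of the other 8 genes, between -0.129 and -0.537, with Maf (0.026) as the exception.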

How the data were processed

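RNA of CD11b-enriched olfactory bulb cells was sequenced in 16 libraries. The authors mapped reads by STAR onto GRCm39 extended by human App and deposited raw counts per gene, 1 column per library. The strand column is not given in the sources used here. Genes reaching 5 counts in 8 or more libraries were kept (18227 of 57010, with 99.86% of counts). These were normalised by TMM and tested with edgeR 4.0.16 (quasi-likelihood, R 4.3.3) with sex as an additive term, or in a fit of the 4 groups for contrasts within sex and the interaction. FDR values are Benjamini-Hochberg adjusted over all tested genes. Each SE is the size of the log2 fold change over the root of its F statistic, and intervals cover 95%. Exact permutation tests (two-sided, 4900 splits) exchanged genotype within sex on log2 CPM with a prior count of 2. Precision follows depth, 9052932 to 18117286 counts per library. The procedure was tested on simulated data.

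Deviations from the group mean correlated between same-numbered WT and knock-in libraries in all 4 female pairs (0.373, 0.21, 0.131 and 0.178) but not in all male pairs (0.166, -0.472, -0.209 and 0.118), so the block is given beside the female result. Some differently numbered female pairs correlated more, such as WT replicate 4 with knock-in replicate 3 (0.43) and WT replicate 2 with knock-in replicate 1 (0.284). Every female pair within replicates 1 and 2 or within replicates 3 and 4 was positive, from 0.131 to 0.43. Every female pair across these sets was negative, from -0.0492 to -0.489 (WT replicate 4 with knock-in replicate 1). The female libraries of both genotypes thus split by set rather than by single number. Male pairs had both signs within the sets and across them. The labels give only the number.

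The 9 genes, the lists and the alternatives were chosen with earlier results of these data known. Named genes were the 9, called genes of the related lists (up to 10 per list), the 2 uncalled genes of highest mean CPM per list, the 3 genes most like each member (mean log2 CPM of 3 or more), and annotated genes that overlap a member or start within 5 kb. Alternatives were DESeq2 1.42.0, limma 3.58.1 (voom), other normalizations, filters and thresholds, no sex term, a replicate block, marker terms and leaving out libraries. Positions came from gencode. The values of 1 marker gene are left out here.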

Additional observations from a re-analysis of the deposited data

Results flagged for a closer look

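Within groups of 4 libraries, the gap between the highest or lowest library and its nearest neighbour was set against the whole range of the group, for the 9 genes, the summed level of each list and the library total. A ratio above Dixon's 95% critical value marked a library as standing apart. This was met in 4 of 104 groups, and chance gives about 1 in 20, or 5.2 of them. Cebpa in WT female replicate 2, the highest of its group at 269.3 CPM, had a ratio of 0.978. Cebpa in WT male replicate 3, the lowest at 153.2 CPM, had a ratio of 0.921. Irf8 in knock-in male replicate 3, the highest at 349.7 CPM, had a ratio of 0.863. The summed neuronal markers in knock-in female replicate 3, the highest at 709.4 CPM, had a ratio of 0.943. Without WT female replicate 2 the difference of Cebpa over both sexes was -0.36 (FDR 0.0104), and without WT male replicate 3 it was -0.45 (FDR 0.00177).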

How the results depend on the processing

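The counts of the 9 genes depended on the fold threshold more than on the tool. Over both sexes 0 were called, and 0 remained the count under RLE and upper quartile normalization, DESeq2, limma voom, no filter, filterByExpr, an FDR of 0.05, no sex term, and terms for the replicate set, neuronal markers or immediate early genes. With the FDR alone it was 3, without knock-in male replicates 3 and 4 it was 2, and with replicates 1 and 2 alone it was 3. Those 2 knock-in male libraries were left out because they were seen to be high for Csf1, Cebpa, Cebpb and Runx1, which by itself makes the differences of these genes larger, so nothing rests on that fit. The fit of replicates 1 and 2 alone leaves out the same 2 libraries, so nothing rests on it either. The count below the FDR threshold, 3, went to 0 with the neuronal term, to 0 with the immediate early term, to 0 with replicates 3 and 4 alone, to 5 without knock-in male replicates 3 and 4 and to 5 with replicates 1 and 2 alone. With upper quartile normalization it was 2, as Runx1 had an FDR of 0.103. It was 4 with limma voom, which added Irf8 (FDR 0.0948). It was also 4 with no filter (Csf1 added, FDR 0.00697) and with the replicate set term (Csf1 added, -0.45, FDR 0.0588). Leaving out 1 library gave 0 to 1 called and 1 to 4 below the FDR threshold over both sexes, and 0 to 3 called in females. In males, for the interaction and between the sexes the count was 0 in each alternative run for them.

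The sign turned with the immediate early term for Csf1 (0.431), Il34 (-0.0656), Maf (-0.097), Cebpb (0.0741), Runx1 (0.000449) and Bhlhe41 (0.0211). It turned for Csf1r with the neuronal term (0.024), with replicates 3 and 4 alone (0.0178) and without WT male replicate 2 (0.0104, the highest of the leave-out fits, which reach down to -0.0374), and for Maf with replicates 3 and 4 alone (-0.0344). The cause was not tested. Cebpa was below the FDR threshold in 27 of 30 fits, Cebpb in 20, Runx1 in 15, Csf1 in 6 and Irf8 in 5. The 30 fits share most of their libraries, so these counts are no independent support. They include the fit without knock-in male replicates 3 and 4 and that of replicates 1 and 2 alone, on which nothing rests. In each of these all 5 genes were below the threshold.

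With the replicate number as a block, 0 of the 9 were called over both sexes, 3 in females, 0 in males, 0 in the interaction and 0 between the sexes, and 4 were below the FDR threshold over both sexes, the added gene being Csf1 (-0.46, FDR 0.0666). The block called 1562 genes in all, against 1574 without it. Neither in females nor over both sexes did the numbers pair the libraries, since not every library correlated best with its own number. Among the 9, depth limits Il34 most, with 9 to 27 counts.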
